A study of Homo sapiens with 60 samples.

Results

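The transcriptome of HT29 cells, a human colorectal adenocarcinoma line, was compared between a high and a low dose of an ethanol extract of Cimicifugae Rhizoma, the rhizome used in East Asian herbal medicine. The libraries were chosen by their labels alone: 3 libraries of cells given 500 µg/mL and 3 of cells given 20 µg/mL, 6 of the 60 libraries in the series, all read after 24 h. The 3 libraries at 100 µg/mL served only to place the dose at which a gene moved. For reference, 9 libraries of Citri Unshius Pericarpium, a mandarin peel, at the same 3 doses and time, and 3 vehicle libraries with 0.1% DMSO per the sample labels, were fitted with them, 21 in all. Both extracts were made with 70% ethanol. The labels do not describe the replicates as separate cultures, animals or passages, so p-values measure the spread between these libraries, which may be technical. The titles of the vehicle and extract samples carry the same batch label, D, while the sample numbers put the vehicle in a series of its own. The labels do not say whether all were prepared together, so vehicle values are given as levels only. Because bulk RNA was measured, a change in every cell and a larger change in some cells cannot be told apart.

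Background on 3 control systems helps to read the genes. NRF2 is a transcription factor that KEAP1 holds down by targeting it for degradation. Electrophiles and oxidants that modify KEAP1 release NRF2, which binds antioxidant response elements and drives genes for glutathione synthesis, thioredoxin reduction, NADPH supply, haem breakdown and reductive detoxification. The aryl hydrocarbon receptor is a ligand-activated factor that pairs with ARNT, binds xenobiotic response elements and induces cytochromes of the CYP1 family together with some conjugating enzymes, and in the gut it responds to plant and microbial compounds. ATF4 is translated when the integrated stress response slows protein synthesis, and it drives amino acid uptake and asparagine and serine synthesis.

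Library totals of the 21 libraries were 18.1 to 36.7 M counts. Of 15472 genes tested from low to high dose, 187 passed, 1.21% of those tested, with 93 higher (0.601%) and 94 lower (0.608%). In each of the 187 genes the 3 high-dose libraries did not overlap the 3 low-dose ones, a separation also seen upward in 9.37% and downward in 8.78% of all tested genes. Among the rises 16 reached 1.5-fold and 5 reached 2-fold, and among the falls 12 and 2 did. All 12 colon epithelium markers checked were above the detection floor in each of the 9 Cimicifugae libraries. Of 4 leukocyte markers LYZ alone was above it throughout, with PTPRC at most 0.0469 CPM and CD3E at 0, where CPM is the count scaled to library size, with the TMM factors of edgeR. The share of counts from mitochondrial genes ran from 7.63% to 9.46%. Cimicifugae high replicate 1 lay apart from the other libraries on the third principal component, and the 3 vehicle libraries and Citri medium replicate 3 lay apart on the first, Vehicle replicate 1 farthest. On the second component the 6 replicate-1 libraries of the extracts lay on the other side of 0 from their replicates 2 and 3.

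**Figure D1:**
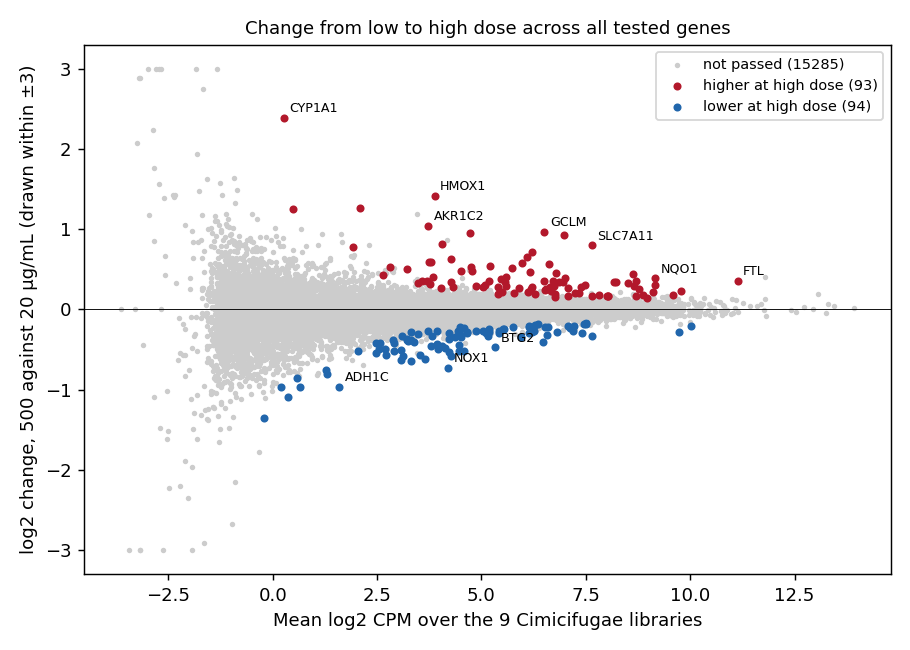
Log2 change from 20 to 500 µg/mL of Cimicifugae Rhizoma (y axis, drawn within ±3) against mean log2 CPM (x axis) for all 15472 tested genes, with rises past the threshold in red and falls in blue. The 93 higher and 94 lower genes lie on both sides of 0, and the 5 rises of at least 2-fold include CYP1A1, HMOX1 and AKR1C2.

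The list of NRF2 targets, chosen like the other lists with earlier results of these data known, moved upward from low to high dose. Of its 35 members 34 were tested, 23 rose and 0 fell, and the median log2 change was 0.35, beside a median of −0.0010 over all tested genes. AKR1B1 was below the count filter. The largest rises fell in haem breakdown, the glutathione pathway and the aldo-keto reductases. KEAP1 itself, the repressor, changed by 0.11 ± 0.05 on the log2 scale, which did not pass (adjusted p = 0.533). All adjusted p-values here come from edgeR's quasi-likelihood test with Benjamini-Hochberg adjustment over all tested genes, and values after ± are standard errors for log2 changes.

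HMOX1 (ENSG00000100292, chromosome 22, 35380361 to 35394214, plus strand, GRCh38) encodes haem oxygenase 1, which opens haem to biliverdin, carbon monoxide and iron. Its level was 31.6, 25.8 and 25.3 CPM in high-dose replicates 1 to 3, 12.1, 10.9 and 10.1 at medium, 11.5, 9.81 and 9.71 at low and 9.22, 8.78 and 8.22 in vehicle. The high-dose libraries were all more than any other library of these groups, and the medium and low libraries overlapped. The means were 27.6 ± 3.5 CPM at high and 10.3 ± 0.98 at low dose (SD, n = 3 each). The change was 1.42 ± 0.10 (adjusted p = 1.09e-08), or 2.67-fold, and 6.74% of it was reached at medium dose.

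Genes of glutathione synthesis and cystine import rose. GCLM (chromosome 1, 93885205 to 93909456, minus strand), the modifier subunit of glutamate-cysteine ligase, was at 144, 134 and 137 CPM at high, 87.9, 69.1 and 74.8 at medium, 74.6, 66.04 and 71.7 at low and 69.2, 64.4 and 70.6 in vehicle. The high group stood clear of the other 3, which overlapped one another, and the change was 0.97 ± 0.08 (adjusted p = 7.08e-08, 1.96-fold). GCLC, the catalytic subunit of the same enzyme, was at 129, 122 and 120.3 CPM at high and 88.2, 81.5 and 81.7 at low dose. Its groups did not overlap and its change was 0.56 ± 0.05 (adjusted p = 5.63e-07). SLC7A11 (chromosome 4, 138164097 to 138242349, minus strand), the cystine importer that feeds the pathway, was at 280.2, 279.8 and 295 CPM at high, 185, 159 and 176 at medium and 158, 162 and 172 at low dose. High dose stood apart while medium and low overlapped, with a change of 0.80 ± 0.07 (adjusted p = 6.17e-07, 1.74-fold). GSR, which reduces oxidised glutathione, and GPX2, the gut glutathione peroxidase, did not pass, with 0.20 ± 0.05 (adjusted p = 0.083) and 0.16 ± 0.05 (adjusted p = 0.134).

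The aldo-keto reductases reduce aldehydes and ketones, and 4 of the list's members passed. AKR1B10 (chromosome 7, 134527592 to 134541408, plus strand), which reduces retinal and lipid aldehydes, was at 189, 187 and 174 CPM at high, 116, 113 and 110.2 at medium and 101, 91.01 and 97.6 at low dose. The 3 doses did not overlap and were ordered, with a change of 0.93 ± 0.05 (adjusted p = 1.06e-09), 24.7% of it at medium. Its vehicle libraries, at 120.1, 106.7 and 112.9 CPM, overlapped medium and lay above low dose. AKR1C2 (chromosome 10, 4987400 to 5018031, minus strand) was at 20.5, 20.3 and 19.4 CPM at high, 11.9, 11.5 and 11.4 at medium and 9.37, 10.6 and 9.11 at low dose, a change of 1.04 ± 0.08 (adjusted p = 3.3e-08, 2.06-fold). AKR1C1 (chromosome 10, 4963253 to 4983283, plus strand) was at 24.8, 24.1 and 24.3 CPM at high, 14.7, 11.8 and 14.4 at medium and 13.3, 13.4 and 14.8 at low dose, and medium and low overlapped. Its change was 0.82 ± 0.08 (adjusted p = 7.53e-07). Vehicle held 11.7, 11.4 and 11.3 CPM of AKR1C2, which overlapped medium and lay above low dose. For AKR1C1 vehicle held 16.4, 14.7 and 15.3 CPM, with a mean above those of medium and low dose. AKR1C3 (chromosome 10, 5035354 to 5107686, plus strand), which also converts steroids and prostaglandins, was at 85.3, 103 and 82.6 CPM at high and 56.01, 55.9 and 60.1 at low dose, with replicate 2 the highest of the high group and a change of 0.65 ± 0.11 (adjusted p = 0.00152). The AKR1C genes are near-identical neighbours, so the split of reads among them is uncertain.

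Genes of quinone and thioredoxin reduction rose as well. NQO1, a quinone reductase, was at 690.1, 688 and 650.2 CPM at high, 527, 507 and 511 at low dose and 565, 508 and 524 in vehicle, with a change of 0.39 ± 0.04 (adjusted p = 9.52e-06). TXNRD1, thioredoxin reductase 1, was at 479, 499 and 468 CPM at high and 366, 342 and 360.3 at low dose, a change of 0.44 ± 0.05 (adjusted p = 1.45e-05). For both genes the high libraries were above all medium, low and vehicle libraries. SRXN1, sulfiredoxin, rose by 0.22 ± 0.05 (adjusted p = 0.0266), and its call was lost without high replicate 1 (adjusted p = 0.134), high replicate 2 (0.157), low replicate 2 (0.17) or low replicate 3 (0.122). TXN, thioredoxin, and PRDX1, a peroxiredoxin, did not pass, with 0.12 ± 0.09 (adjusted p = 0.717) and 0.09 ± 0.05 (adjusted p = 0.63).

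Enzymes of NADPH supply rose too. ME1, malic enzyme, was at 140.0, 135 and 132 CPM at high, 109, 95.3 and 100.2 at medium and 104, 96.8 and 95.7 at low dose, a change of 0.45 ± 0.05 (adjusted p = 2.26e-05). TKT, transketolase of the pentose phosphate pathway, was at 668, 657 and 620.3 CPM at high and 546, 510.2 and 513 at low dose, a change of 0.31 ± 0.04 (adjusted p = 9.66e-05). In both genes the high libraries stood above all medium, low and vehicle libraries. PGD and TALDO1, further enzymes of that pathway, did not pass, with 0.08 ± 0.04 (adjusted p = 0.545) and 0.03 ± 0.06 (adjusted p = 0.946).

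Other members of the list covered autophagy, growth inhibition, efflux and iron. SQSTM1, the autophagy receptor p62, was at 526, 472 and 466 CPM at high and 403, 364 and 374 at low dose, a change of 0.36 ± 0.06 (adjusted p = 0.00113). OSGIN1, an oxidative stress-induced growth inhibitor, was at 16.1, 16.5 and 16.6 CPM at high, 13.5, 13.6 and 12.8 at medium and 10.7, 10.5 and 11.6 at low dose. Its 3 doses did not overlap, and 48.03% of its change of 0.59 ± 0.06 (adjusted p = 4.27e-06) was reached at medium. ABCC2, an efflux pump for glutathione and glucuronide conjugates, was at 2.29, 2.49 and 2.32 CPM at high and 0.882, 1.28 and 0.769 at low dose, a change of 1.25 ± 0.24 (adjusted p = 0.00554, 2.39-fold), which missed the threshold without low replicate 3 (adjusted p = 0.0525). MAFG, a partner of NRF2 on DNA, was at 105, 99.4 and 106 CPM at high and 87.01, 85.8 and 87.1 at low dose, a change of 0.25 ± 0.05 (adjusted p = 0.00519), while its vehicle libraries held 116, 103 and 100.0 CPM and overlapped the high group. FTL, the light chain of the iron store ferritin, was at 2753, 2426 and 2565 CPM at high, 2064, 2047 and 1932 at low dose and 2923, 2368 and 2465 in vehicle. It rose by 0.36 ± 0.07 between doses (adjusted p = 0.00852), overlapped vehicle at high dose, and missed the threshold without high replicate 1 (adjusted p = 0.0766) or low replicate 3 (0.0683).

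**Figure D2:**
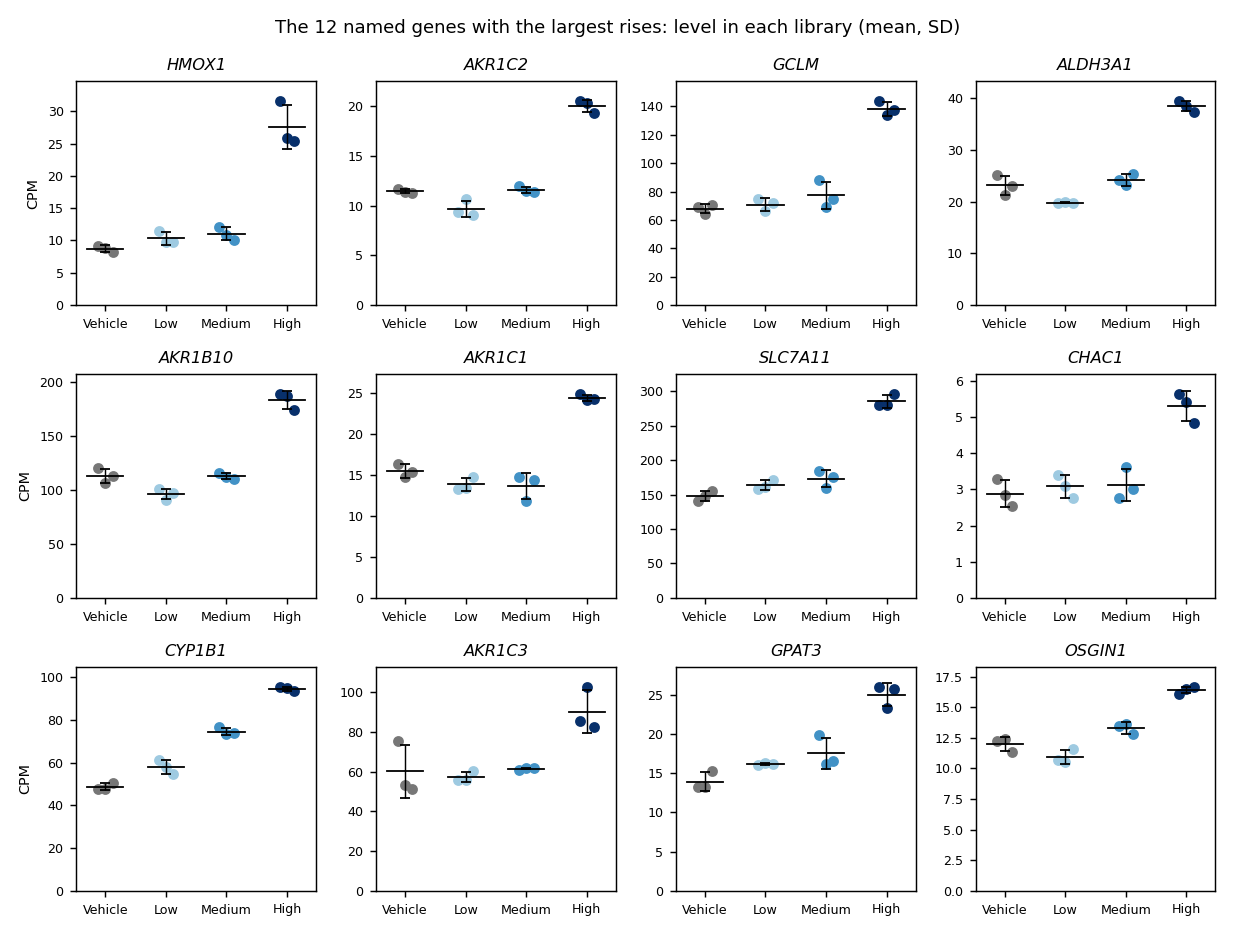
CPM (y axis) in each library (points) in vehicle and at low, medium and high dose of Cimicifugae Rhizoma (x axis), with the mean and SD as lines, for the 12 largest rises among the named genes. In HMOX1 the 3 high-dose libraries lie between 25.3 and 31.6 CPM and no library of the other groups exceeds 12.1 CPM.

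The window from 250 bases before to 50 after the transcription start was searched for the core of the antioxidant response element, TGACNNNGC, on both strands, since these are the sites NRF2 is known for. A gene with several starts counted as holding the core where any of its windows did. RefSeq windows on GRCh38.p14 matched 18 of the 23 members that passed, and 4 of these held the core (22.2%), GCLM, ME1, TXNRD1 and EPHX1. Over the 25 members tested that had a window it was 8 (32%). The core stood in 19.5% of the 10797 tested genes with a window and in 16.1% of all 27305 genes with a window, so these shares lie near the background. Among the 74 rises with a window it stood in 23%, and among the 72 falls in 20.8%. The windows of 3 members are shown so that the position of the core can be seen, 5′ to 3′ on the gene's strand, with the core in capitals on either strand. They span chr1:93909381-93909680 (minus strand) for GCLM, chr6:83431002-83431301 (minus strand) for ME1 and chr12:104215529-104215828 (plus strand) for the first of the TXNRD1 starts listed.
GCLM: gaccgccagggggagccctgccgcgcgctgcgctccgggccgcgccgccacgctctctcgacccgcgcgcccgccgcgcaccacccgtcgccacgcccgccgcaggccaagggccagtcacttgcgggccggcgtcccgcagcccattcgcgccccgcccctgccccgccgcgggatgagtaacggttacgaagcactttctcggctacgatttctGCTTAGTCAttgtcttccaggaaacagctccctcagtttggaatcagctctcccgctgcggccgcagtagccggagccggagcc
ME1: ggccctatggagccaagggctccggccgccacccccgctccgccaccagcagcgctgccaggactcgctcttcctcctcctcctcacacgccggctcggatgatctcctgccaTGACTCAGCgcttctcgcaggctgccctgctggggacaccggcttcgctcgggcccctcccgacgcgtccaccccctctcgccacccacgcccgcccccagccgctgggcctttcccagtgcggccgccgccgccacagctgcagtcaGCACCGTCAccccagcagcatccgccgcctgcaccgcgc
TXNRD1: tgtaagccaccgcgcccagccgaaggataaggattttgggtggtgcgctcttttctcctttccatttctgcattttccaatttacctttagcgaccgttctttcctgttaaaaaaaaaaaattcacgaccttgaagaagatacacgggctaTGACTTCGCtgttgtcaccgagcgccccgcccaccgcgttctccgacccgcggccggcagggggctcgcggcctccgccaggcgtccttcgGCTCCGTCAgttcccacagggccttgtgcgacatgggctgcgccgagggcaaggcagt
The GCLM core lies just before the start, and ME1 and TXNRD1 hold 2 cores each. A match is a run of letters and not a bound site, and these windows leave out distant enhancers.

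The list of the aryl hydrocarbon receptor and its targets held 10 tested members, of which 7 rose and 0 fell, with a median log2 change of 0.37. It shares NQO1 with the NRF2 list and SLC7A5 with the ATF4 list. CYP1A1 (chromosome 15, 74719542 to 74725610, minus strand), the cytochrome that oxidises aromatic hydrocarbons, was at 2.95, 2.201 and 2.82 CPM at high, 1.17, 0.917 and 1.095 at medium, 0.418, 0.553 and 0.526 at low and 0.495, 0.495 and 0.404 in vehicle. The 3 doses did not overlap, low overlapped vehicle, and the change of 2.39 ± 0.32 (adjusted p = 0.000137) was 5.23-fold. It was the largest fold change among the 93 rises, at a low level. CYP1B1 (chromosome 2, 38066973 to 38109902, minus strand), a related cytochrome, was at 95.3, 94.9 and 93.5 CPM at high, 76.5, 73.2 and 74.04 at medium, 61.1, 57.8 and 54.6 at low and 47.9, 47.6 and 50.6 in vehicle. Each of these 4 groups stood apart from the next in that order, with a change of 0.71 ± 0.07 (adjusted p = 7.53e-07) and 51.8% of it at medium.

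ALDH3A1 (chromosome 17, 19737984 to 19748943, minus strand), an aldehyde dehydrogenase, was at 39.4, 38.5 and 37.4 CPM at high, 24.2, 23.1 and 25.4 at medium and 19.6, 19.96 and 19.8 at low dose. The doses did not overlap, and the change was 0.95 ± 0.06 (adjusted p = 3.9e-09, 1.94-fold). Vehicle, at 25.05, 21.3 and 22.9 CPM, overlapped medium and lay above low dose. TIPARP, a mono-ADP-ribosyltransferase that damps the receptor, was at 108, 104 and 100.2 CPM at high and 81.6, 81.7 and 81.1 at low dose, a change of 0.35 ± 0.06 (adjusted p = 0.00253). UGT1A6, which conjugates planar phenols with glucuronic acid, was at 77.3, 83.3 and 74.4 CPM at high, 62.3, 63.3 and 56.6 at medium and 51.6, 53.3 and 51.8 at low dose, with no overlap between doses and a change of 0.58 ± 0.07 (adjusted p = 5.26e-05). AHR, ARNT and AHRR, the receptor, its partner and its repressor, changed by 0.02 ± 0.07, -0.02 ± 0.06 and -0.02 ± 0.10 and did not pass (adjusted p = 0.971, 0.966 and 0.986).

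The core of the xenobiotic response element, GCGTG, was searched in the same windows on both strands, and is also part of hypoxia response elements. It stood in all 5 of the 5 passing members of this list that had a window, and in 57.6% of tested genes with a window. As before, a gene counted where any of its windows held the core, and TIPARP and UGT1A6 lacked it in other windows. CYP1B1 and ALDH3A1 had no window. Among all rises with a window the core stood in 59.5% and among all falls with one in 59.7%. The CYP1A1 window, chr15:74725479-74725778 on the minus strand, is shown as that of the gene with the largest change, with the core in capitals.
CYP1A1: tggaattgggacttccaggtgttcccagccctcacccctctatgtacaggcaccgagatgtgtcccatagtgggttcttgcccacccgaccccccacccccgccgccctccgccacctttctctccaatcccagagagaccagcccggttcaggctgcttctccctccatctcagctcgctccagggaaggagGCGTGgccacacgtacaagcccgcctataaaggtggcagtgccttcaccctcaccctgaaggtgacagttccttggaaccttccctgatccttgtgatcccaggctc
It holds 1 core within these 300 bases, and more distant elements are outside it.

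Drug metabolism and efflux genes rose in 5 of 23 tested members and fell in 0. UGT1A1, which conjugates bilirubin, was at 62.9, 65.8 and 65.4 CPM at high and 47.4, 45.2 and 43.5 at low dose, a change of 0.51 ± 0.06 (adjusted p = 5.78e-05). UGT1A10, an intestinal member of the family, was at 474, 463 and 443 CPM at high and 390.1, 374 and 365 at low dose, a change of 0.29 ± 0.04 (adjusted p = 0.000243). In both the high libraries lay above all others of the 4 groups. Genes of the UGT1A locus share their last exons, so the split of reads among UGT1A1, UGT1A6 and UGT1A10 is uncertain. The other 2 were ABCC2 and ABCG2, the latter an efflux pump with a change of 0.23 ± 0.05 (adjusted p = 0.0307) that was lost in 6 of the 21 fits that left out 1 library, at an adjusted p of up to 0.18. Without low replicate 3 the list counted 3 rises.

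The list of ATF4 and amino acid stress genes held 29 tested members, of which 8 rose and 0 fell, with a median log2 change of 0.20. CHAC1 (chromosome 15, 40952962 to 40956519, plus strand), which degrades glutathione, was at 5.63, 5.43 and 4.84 CPM at high, 2.76, 3.63 and 3.003 at medium and 3.39, 3.11 and 2.75 at low dose. Medium and low overlapped, and the change was 0.78 ± 0.14 (adjusted p = 0.00296, 1.72-fold). ASNS, asparagine synthetase, was at 87.96, 89.03 and 80.5 CPM at high and 66.9, 60.3 and 59.97 at low dose, a change of 0.46 ± 0.05 (adjusted p = 9.52e-06). SLC7A5, the large neutral amino acid transporter, was at 345, 334 and 343 CPM at high, 267, 271 and 267 at low dose and 282, 296 and 302 in vehicle, a change of 0.34 ± 0.04 (adjusted p = 1.05e-05), and its high libraries were above all of the other groups. PSAT1, of serine synthesis, rose by 0.34 ± 0.04 (adjusted p = 8.79e-05).

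TRIB3, a pseudokinase induced by ATF4, was at 60.8, 53.4 and 55.4 CPM at high and 45.7, 41.4 and 41.7 at low dose, a change of 0.40 ± 0.05 (adjusted p = 9.16e-05). GDF15, a stress-induced cytokine, was at 56.5, 54.3 and 52.9 CPM at high and 43.2, 41.1 and 44.9 at low dose, a change of 0.34 ± 0.06 (adjusted p = 0.00416). In both genes the high group lay above the other 3 groups. SLC3A2, the heavy chain that pairs with SLC7A5 and SLC7A11, rose by 0.28 ± 0.06 (adjusted p = 0.00967), a call lost without high replicate 2 (adjusted p = 0.0655) or low replicate 2 (0.09). SLC1A5, the glutamine transporter, rose by 0.18 ± 0.04 (adjusted p = 0.0171), a call lost in 4 of the 21 fits that left out 1 library, at an adjusted p of up to 0.112. ATF4 itself and DDIT3, which encodes CHOP, did not pass, with 0.13 ± 0.06 (adjusted p = 0.433) and 0.15 ± 0.12 (adjusted p = 0.774). Of the 18 aminoacyl-tRNA synthetases 0 passed, with a median of 0.093. With all 60 libraries of the series in the fit 5 members of the ATF4 list passed, and TRIB3 (adjusted p = 0.352) and GDF15 (0.58) were not among them, nor were SLC3A2 (0.747) and SLC1A5 (0.922). With 59 of the 60 libraries, leaving out a Zizyphi Fructus library that stands apart, 14 passed, and 13 passed without Vehicle replicate 1 and Citri medium replicate 3.

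**Figure D3:**
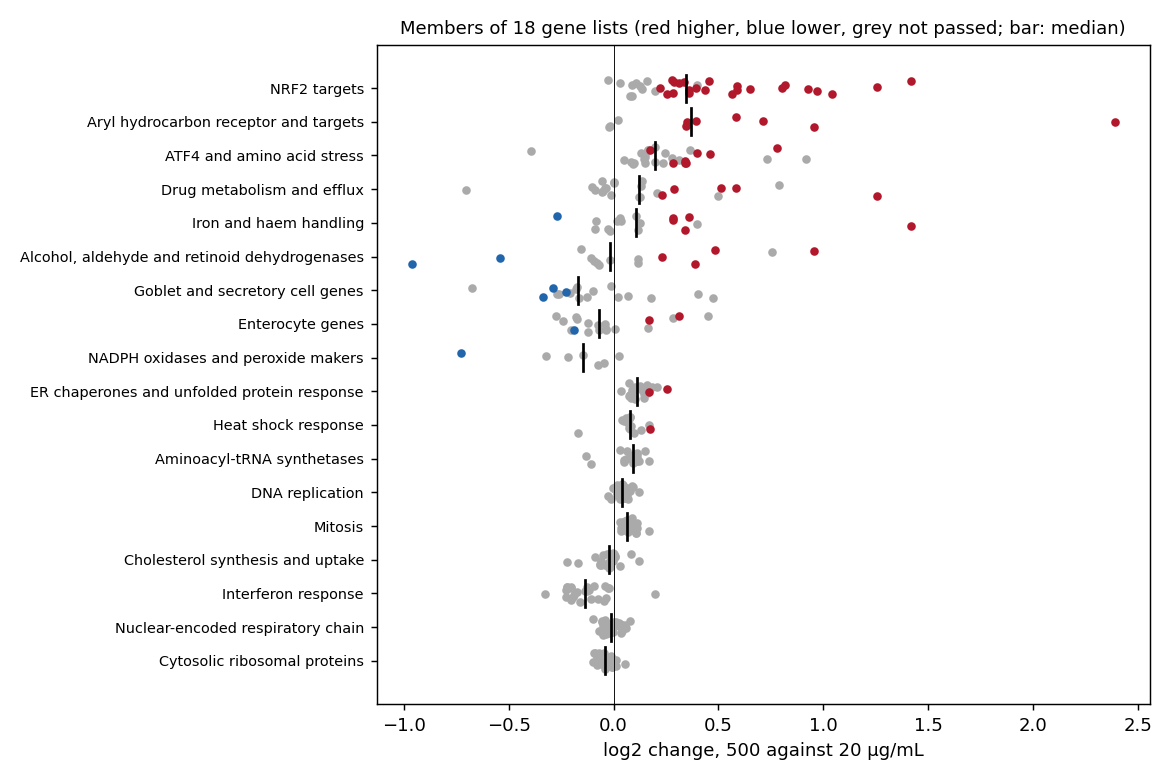
Log2 change from low to high dose of Cimicifugae Rhizoma (x axis) for each tested member (points) of 18 of the gene lists (y axis), with list medians as bars, red for rises, blue for falls and grey for members that did not pass. Red points make up 23 of 34 NRF2 targets, 7 of 10 aryl hydrocarbon receptor genes and 8 of 29 ATF4 genes.

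Those 3 lists together held 36 of the 93 rises among their 34, 10 and 29 tested members. Of all 15472 tested genes 0.601% rose. As the lists were chosen with earlier results of these data known, their share of the rises is not read as a test. Of the rises 38 were in none of the 39 lists. Of those in other lists, ALDH1A3, an enzyme of retinoic acid synthesis, was at 24.5, 27.3 and 27.3 CPM at high, 22.9, 22.8 and 25.05 at medium and 20.2, 18.1 and 18.6 at low dose. High and medium overlapped, and 66.2% of its change of 0.48 ± 0.07 (adjusted p = 0.000368) was reached at medium. ALDH3A2, which oxidises fatty aldehydes, rose by 0.39 ± 0.04 (adjusted p = 1.4e-05). HSPA5, the main chaperone of the endoplasmic reticulum, was at 489.9, 496 and 469 CPM at high and 417, 401 and 401 at low dose, a change of 0.25 ± 0.04 (adjusted p = 0.000363). HYOU1, a chaperone of the same compartment, was the only other of 22 tested chaperone genes to rise, by 0.17 ± 0.03 (adjusted p = 0.00747), and missed the threshold without low replicate 3 (adjusted p = 0.0682). THBS1, the matrix glycoprotein thrombospondin 1, was at 32.8, 32.4 and 33.01 CPM at high, 27.2, 26.5 and 27.2 at medium and 23.9, 22.8 and 23.6 at low dose, with no overlap and a change of 0.48 ± 0.07 (adjusted p = 0.000271).

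Among rises outside the lists, GPAT3 (chromosome 4, 83535914 to 83605875, plus strand), which makes lysophosphatidic acid for triglyceride synthesis, was at 25.98, 23.4 and 25.8 CPM at high and 16.01, 16.3 and 16.1 at low dose, a change of 0.63 ± 0.08 (adjusted p = 8.17e-05). IFRD1, a transcriptional coregulator, rose by 0.38 ± 0.04 (adjusted p = 9.52e-06), and NAMPT, of NAD salvage, rose by 0.30 ± 0.05 (adjusted p = 0.00126). The gene ENSG00000233461 (chromosome 1, 231522388 to 231528556, minus strand), antisense per GENCODE and with no symbol, was named after its values were seen as 1 of the 5 rises of at least 2-fold. It was at 7.19, 6.56 and 6.82 CPM at high and 2.55, 2.69 and 3.32 at low dose, a change of 1.26 ± 0.16 (adjusted p = 7.09e-05, 2.39-fold). In these genes the high libraries lay above all medium, low and vehicle libraries. The sources used here do not say whether counting used strand, so its reads may be shared with the gene on the other strand.

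Iron and haem genes rose in 5 of 17 tested members and fell in 1. Besides HMOX1 and FTL, the haem transporter SLC48A1 rose by 0.28 ± 0.05 (adjusted p = 0.00681), a call lost without high replicate 1 (adjusted p = 0.0696). FECH, which inserts iron into protoporphyrin to make haem, was at 22.9, 23.04 and 21.1 CPM at high and 18.3, 17.6 and 17.00 at low dose, a change of 0.34 ± 0.07 (adjusted p = 0.0109). Its call was lost without high replicate 1 (adjusted p = 0.0679), high replicate 2 (0.0695), low replicate 2 (0.057) or low replicate 3 (0.0801). ABCB6, a porphyrin transporter, rose by 0.29 ± 0.06 (adjusted p = 0.00813), a call lost without low replicate 2 (adjusted p = 0.0561), high replicate 3 (0.0832) or low replicate 3 (0.0568). The list counted 2 rises without high replicate 1 or low replicate 3 and 3 without low replicate 2. SLC40A1, the iron exporter ferroportin, was at 129, 136 and 135 CPM at high, 156, 166 and 159.7 at low dose and 118, 125 and 134 in vehicle. It fell by 0.27 ± 0.05 (adjusted p = 0.00361) between doses, and its high libraries overlapped those of vehicle.

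Of the 94 falls 79 were in no list. NOX1 (chromosome X, 100843324 to 100874345, minus strand), the colon's superoxide-producing NADPH oxidase, was at 13.3, 12.96 and 14.6 CPM at high, 20.1, 18.96 and 20.2 at medium, 21.9, 22.3 and 23.7 at low and 18.6, 18.1 and 20.01 in vehicle. The 3 doses did not overlap and high lay below vehicle, with a change of -0.73 ± 0.07 (adjusted p = 3.86e-06), to 0.604 of the low-dose level. It was the 1 of 7 tested genes for NADPH oxidases and peroxide makers to pass. ADH1C, an alcohol dehydrogenase, was at 1.84, 2.15 and 1.85 CPM at high, 3.84, 3.101 and 3.43 at medium, 4.13, 3.35 and 3.97 at low and 1.93, 2.59 and 2.53 in vehicle. High lay below medium and low but overlapped vehicle, and the change was -0.96 ± 0.14 (adjusted p = 0.000355). ADH6, another alcohol dehydrogenase, was at 4.404, 4.26 and 4.505 CPM at high and 6.17, 6.25 and 6.72 at low dose, a change of -0.54 ± 0.10 (adjusted p = 0.00602). In the list of alcohol, aldehyde and retinoid dehydrogenases 4 of 15 tested members rose, all of them aldehyde dehydrogenases, and 2 fell, both alcohol dehydrogenases.

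Transporters and surface proteins were among the falls. SLC14A1, a urea transporter, was at 6.74, 6.07 and 6.95 CPM at high, 8.95, 9.22 and 8.302 at medium and 10.2, 10.4 and 10.1 at low dose, a change of -0.64 ± 0.09 (adjusted p = 0.000363). SLC6A20, a proline transporter, was at 9.14, 9.099 and 9.39 CPM at high and 13.8, 13.6 and 13.5 at low dose, a change of -0.56 ± 0.08 (adjusted p = 0.000111). CD200, an immunoglobulin-family surface protein, was at 7.53, 6.898 and 6.399 CPM at high and 9.98, 11.2 and 9.79 at low dose, a change of -0.58 ± 0.10 (adjusted p = 0.00217). KCNE3, a potassium channel subunit, was at 54.96, 53.6 and 54.9 CPM at high and 68.8, 69.6 and 69.7 at low dose, a change of -0.35 ± 0.04 (adjusted p = 9.52e-06). ATP6V1B1, a subunit of the proton pump, was at 14.6, 15.5 and 15.7 CPM at high and 21.6, 24.2 and 22.5 at low dose, a change of -0.58 ± 0.10 (adjusted p = 0.00229). For these 5 genes the high libraries lay below every medium, low and vehicle library.

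RNF144B, an E3 ubiquitin ligase, was at 9.53, 10.2 and 9.98 CPM at high and 14.3, 15.4 and 15.8 at low dose, a change of -0.62 ± 0.07 (adjusted p = 2.23e-05). DPH6, of diphthamide synthesis, was at 7.97, 8.02 and 7.37 CPM at high, 10.6, 11.5 and 14.1 at low dose and 15.6, 12.1 and 12.2 in vehicle, a change of -0.64 ± 0.11 (adjusted p = 0.00213). Low replicate 3 was the highest of its group for DPH6. PLBD1, a phospholipase B-like protein, fell by 0.57 ± 0.11 (adjusted p = 0.0074), overlapped medium at high dose, and missed the threshold without high replicate 2 (adjusted p = 0.0655) or high replicate 3 (0.0679). RAMP1, a receptor activity-modifying protein, was at 1.62, 1.81 and 1.73 CPM at high and 2.55, 3.005 and 3.12 at low dose, a change of -0.75 ± 0.18 (adjusted p = 0.0328), lost in 5 of the 21 fits that left out 1 library, at an adjusted p of up to 0.158. The 2 falls of at least 2-fold, named after their values were seen, were of low level. HOMER2, a scaffold protein, was at 0.446, 0.342 and 0.463 CPM at high and 0.975, 1.002 and 1.25 at low dose, a change of -1.35 ± 0.32 (adjusted p = 0.0347), lost in 6 of those 21 fits at an adjusted p of up to 0.183. FOLR1, a folate receptor, was at 0.557, 0.832 and 0.884 CPM at high and 1.903, 1.62 and 1.42 at low dose, a change of -1.09 ± 0.22 (adjusted p = 0.0108), lost without high replicate 1 (adjusted p = 0.0844) or low replicate 1 (0.0533).

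Of 22 tested p53 targets and CDK inhibitors 0 rose and 2 fell. BTG2, an antiproliferative gene, was at 32.4, 33.8 and 33.97 CPM at high, 41.05, 42.4 and 41.2 at medium and 44.7, 47.4 and 46.8 at low dose, with no overlap and a change of -0.47 ± 0.05 (adjusted p = 1.61e-06). Its vehicle libraries, at 40.6, 40.8 and 42.1 CPM, overlapped medium and lay below low dose. SESN1, sestrin 1, was at 31.7, 30.9 and 28.96 CPM at high and 37.7, 37.1 and 37.5 at low dose, a change of -0.30 ± 0.05 (adjusted p = 0.00152). Goblet and secretory genes fell in 3 of 18 tested members and rose in 0, with a median of −0.17. AGR2, a disulfide isomerase that folds mucins, was at 180.2, 173 and 172 CPM at high, 212, 202 and 209 at medium and 223, 222 and 219 at low dose, a change of -0.34 ± 0.06 (adjusted p = 0.00253). CREB3L1, a secretory pathway transcription factor, was at 159, 134 and 152 CPM at high and 173, 185 and 186 at low dose, a change of -0.29 ± 0.06 (adjusted p = 0.0062), and missed the threshold without high replicate 2 (adjusted p = 0.0619). The third was MUC13, a membrane mucin, at 131, 119 and 125 CPM at high and 147, 148 and 143 at low dose, a change of -0.23 ± 0.04 (adjusted p = 0.00379). ST6GALNAC1, which puts sialic acid on mucin sugars and was not on that list, was at 2.06, 1.86 and 1.26 CPM at high and 2.92, 3.21 and 2.75 at low dose, a change of -0.80 ± 0.17 (adjusted p = 0.0123), lost without low replicate 2 (adjusted p = 0.0871) or high replicate 3 (0.131). MUC2, the main secreted colonic mucin, did not pass, with -0.21 ± 0.14 (adjusted p = 0.693).

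**Figure D4:**
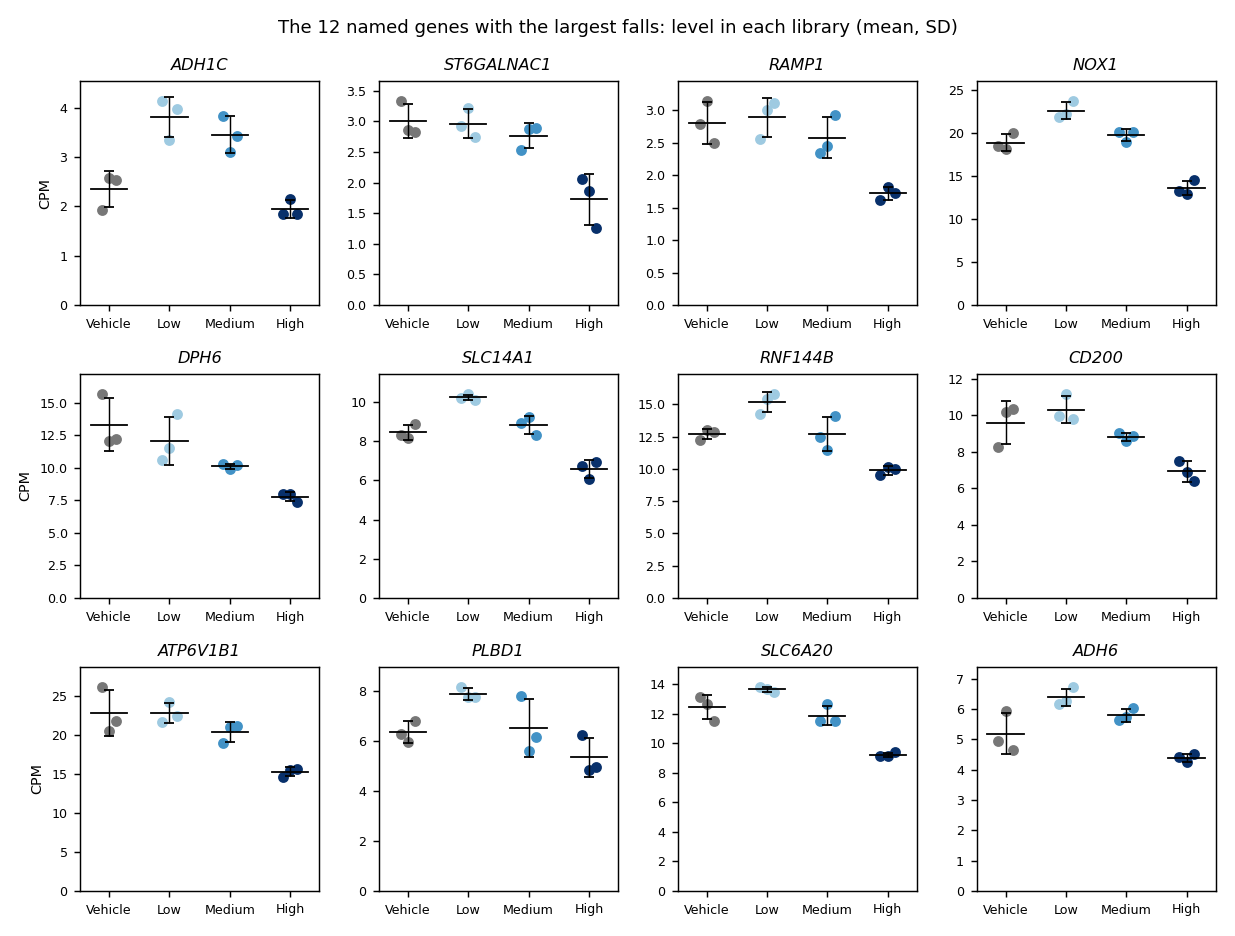
CPM (y axis) in each library (points) in vehicle and at low, medium and high dose of Cimicifugae Rhizoma (x axis), with the mean and SD as lines, for the 12 largest falls among the named genes. In NOX1 the 3 high-dose libraries lie between 13.0 and 14.6 CPM and the 3 low-dose ones between 21.9 and 23.7 CPM.

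Lists with no member past the threshold in either direction covered much of the cell's routine work. Besides the aminoacyl-tRNA synthetases they were 25 cholesterol synthesis genes, 17 PPAR targets, 8 LXR targets, 9 glucose-sensing genes, 7 oestrogen targets, 13 mitochondrial mRNAs, 2 mitochondrial rRNAs, 30 DNA replication genes, 25 mitosis genes, 25 interferon-stimulated genes, 28 respiratory chain subunits, 25 ribosomal protein genes, 24 ribosome biogenesis genes, 20 proteasome subunits, 17 tight junction genes, 10 tubulins and 7 metallothioneins, all counted as tested members. A miss does not show that these genes did not change.

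The dose at which genes moved was placed with the medium libraries. From low to medium dose 0 of 15472 genes passed (0%) in edgeR, 419 had an unadjusted p under 0.05 (2.71%), and DESeq2 called 1, CYP1B1. The smallest adjusted p in edgeR was 0.205, for CYP1B1. From medium to high dose 72 passed (0.465%), 51 higher (0.33%) and 21 lower (0.136%). Of the 187 genes that passed from low to high, 68 also passed from medium to high without passing from low to medium, 49 rises and 19 falls, and were placed at the high dose. As 0 genes passed from low to medium, none could be placed at medium. A placement at high therefore does not show that a gene was unchanged at medium. CYP1B1, OSGIN1 and ALDH3A1 were placed at high with 51.8%, 48.03% and 30.6% of their log2 change reached at medium. The other 119 passed in neither step and could not be placed. From medium to high dose 20 of the 34 tested NRF2 targets rose, as did 7 of 10 aryl hydrocarbon receptor genes and 8 of 29 ATF4 genes.

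Over the 93 rises the median share of the log2 change reached at medium dose was 19%, and over the 94 falls it was 29.8%. At least 50% was reached at medium in 6 rises and 10 falls. CYP1B1 changed by 0.37 ± 0.07 from low to medium, which did not pass (adjusted p = 0.205), and rose by 0.34 ± 0.06 from medium to high (adjusted p = 0.0121). HMOX1 changed by 0.10 ± 0.10 (adjusted p = 1) and 1.32 ± 0.10 (adjusted p = 1.09e-07) over the same steps. The group means of 4 rises (AKR1C1, BEST1, VEGFA and GCNT3) and of 6 falls were not ordered by dose. In 82 of the 93 rises all 3 high-dose libraries were above all 3 vehicle libraries, and in 71 of the 94 falls they were below. The share of all tested genes that stood clear of vehicle in this way was not counted. Nor was the share in which the 3 doses did not overlap. Such separations are therefore not read as a trait of the passing genes. The high-dose mean was under that of vehicle in 3 rises, FTL, MAFG and SLC1A5, and above it in 8 falls, SLC12A2 among them.

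Citri Unshius Pericarpium at the same doses was used to ask which changes differ between the extracts. From its low to its high dose 42 genes passed (0.271%), 6 higher (0.0388%) and 36 lower (0.233%). No library is shared by the 2 comparisons, although both sit in 1 fit. The change from low to high dose differed between the extracts in 42 genes (0.271%), 35 of them with the larger or more positive change with Cimicifugae (0.226%). Of the 93 rises 28 differed, and of the 94 falls 7. The difference was tested with the same Cimicifugae high and low libraries that gave these rises and falls, so these counts are not independent of the calls. Of the NRF2 targets 15 of 34 tested differed, and the list's median change with Citri was 0.0074.

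HMOX1 changed by 0.03 ± 0.11 with Citri, a difference of 1.38 ± 0.15 (adjusted p = 1.99e-05). Its Citri libraries held 9.98, 8.53 and 9.16 CPM at high and 8.88, 8.66 and 9.36 at low dose, so that the Cimicifugae high libraries alone stood out. AKR1C2 differed by 1.24 ± 0.11 (adjusted p = 3.38e-06), with 8.81, 8.86 and 8.05 CPM at high and 10.9, 9.15 and 9.53 at low dose of Citri. GCLM differed by 0.91 ± 0.11 (adjusted p = 8.95e-05) and SLC7A11 by 0.82 ± 0.10 (adjusted p = 0.000137). CYP1B1 differed by 0.73 ± 0.09 (adjusted p = 0.000191), whereas for CYP1A1 the difference of 1.99 ± 0.56 did not pass (adjusted p = 0.285). GDF15 moved in opposite directions: with Citri it was at 33.7, 30.3 and 34.6 CPM at high and 40.7, 41.1 and 42.8 at low dose, a change of -0.34 ± 0.06 (adjusted p = 0.0201), and the difference was 0.68 ± 0.09 (adjusted p = 0.000225).

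Passing changes in the same direction were seen with both extracts in 1 rise and 9 falls. The rise was HSPA5, which changed by 0.24 ± 0.04 with Citri (adjusted p = 0.00289) and differed between extracts by 0.01 ± 0.05 (adjusted p = 1). The falls were SLC44A4, MUC13, VSIR, KCNE3, QPRT, FAM131B, PTPRO, SLC6A20 and ADH1C. ADH1C changed by -0.65 ± 0.14 with Citri (adjusted p = 0.041), SLC6A20 by -0.37 ± 0.07 (adjusted p = 0.0201) and KCNE3 by -0.24 ± 0.04 (adjusted p = 0.00365). MUC13 fell by 0.22 ± 0.04 with Citri (adjusted p = 0.0201). NOX1 changed by -0.30 ± 0.07 with Citri, which did not pass (adjusted p = 0.0834), nor did the difference of -0.42 ± 0.10 (adjusted p = 0.123).

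**Figure D5:**
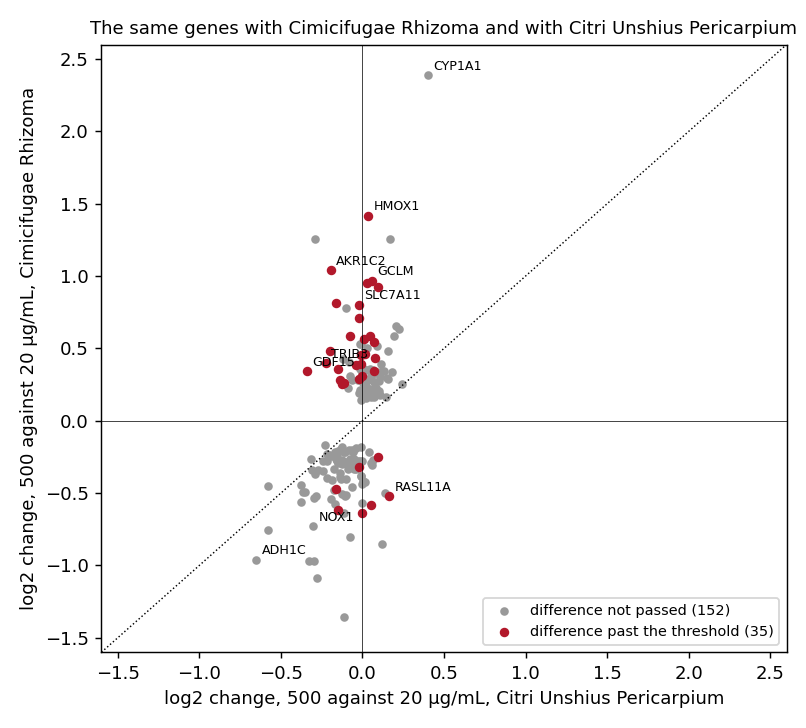
Log2 change from low to high dose with Cimicifugae Rhizoma (y axis) against that with Citri Unshius Pericarpium (x axis) for the 187 genes past the threshold with Cimicifugae, with the 35 whose change differed between extracts in red and equal change as a dotted line. HMOX1 lies at 1.42 on the y axis and 0.03 on the x axis, and ADH1C lies below 0 on both.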

How the data were processed

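HT29 RNA was sequenced from mRNA libraries made with the MGIEasy RNA Directional kit from total RNA (1 µg, RIN over 7) and read as 100 bp paired ends, per the labels. Per the submitters' processing notes the tools were RSEM 1.3.3, STAR 2.7.3a, FastQC 0.11.9 and Trim Galore 0.6.5, and the genome was GRCh38. No annotation is named in the sources used here. The authors deposited a table of expected counts, unscaled, with 60675 gene IDs. Of the 270 columns 210 are not analysed here. Of the values used 91% were whole, and rounding changed a library total by at most 0.000222%. Symbols were found for 67.9% of the IDs, and GENCODE 29 gave the coordinates of 94%. The labels give 0.1% DMSO for the vehicle, and the series' text gives a higher share.

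Groups are the labelled extract and dose. In edgeR 4.0.16 under R 4.3.3, the 15472 genes that reached 0.5 CPM in 3 or more of 21 libraries were tested, with TMM scaling, and a quasi-likelihood model with 7 group means was fitted, with 14 residual degrees of freedom and a biological coefficient of variation of 5.52%. P-values were adjusted over all tested genes of a comparison by Benjamini-Hochberg, with a threshold of 0.05. Standard errors of log2 changes are derived from the F statistics. A floor of 3 counts was 0.0825 to 0.167 CPM, and it covers counting error only. Alternatives used DESeq2 1.42.0, edgeR's RLE factors, other filters, other library sets, a replicate block and each library left out.

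The 12 largest rises and 12 largest falls were taken among genes with a symbol, a pass and a mean log2 CPM of 1 or more. This mean was over the 9 Cimicifugae libraries, and the 3 high libraries had to lie all above or all below the 3 low. Up to 3 passing members of each list were added with no minimum level, CYP1A1 and ABCC2 among them. The 5 largest passing differences from Citri in each direction needed a symbol and the same level, but no pass from low to high dose (59 genes in all). Others were chosen after their values were seen, among them GCLC, NQO1, HOMER2, FOLR1 and list members that did not pass. The members and the 39 gene lists were chosen with earlier results of these data known. Of the 752 genes on the lists 3 had no match. Some results are not reported here.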

Additional observations from a re-analysis of the deposited data

Results flagged for a closer look

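For 32 of the named genes the change from low to high dose differed between Cimicifugae Rhizoma and Citri Unshius Pericarpium in the test of that difference (edgeR's quasi-likelihood test with Benjamini-Hochberg adjustment, 3 libraries in each of the 4 groups), which is what brings them here. The values are the log2 change with Cimicifugae minus that with Citri, and 25 were positive and 7 negative.

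Among NRF2 targets the differences were 1.38 for HMOX1, 1.24 for AKR1C2, 0.98 for AKR1C1, 0.91 for GCLM, 0.83 for AKR1B10, 0.82 for SLC7A11, 0.66 for OSGIN1, 0.55 for GCLC, 0.54 for TRIM16L, 0.51 for SQSTM1, 0.46 for ME1, 0.40 for NQO1, 0.38 for MAFG, 0.36 for TXNRD1 and 0.31 for TKT. TRIM16L has a near-identical copy, TRIM16, so the split of its reads is uncertain. Among genes of the aryl hydrocarbon receptor, conjugation and the dehydrogenases they were 0.93 for ALDH3A1, 0.73 for CYP1B1, 0.68 for ALDH1A3 and 0.31 for UGT1A10. Among ATF4 targets they were 0.68 for GDF15, 0.62 for TRIB3, 0.44 for ASNS and 0.27 for SLC7A5. IFRD1 differed by 0.42.

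IGFL2-AS1, a long intergenic noncoding RNA per GENCODE, differed by 1.16 without passing with Cimicifugae alone. It changed by 0.15 with Cimicifugae and −1.01 with Citri. The negative differences were −0.30 for DCTN1, a dynactin subunit, −0.31 for BTG2, −0.35 for TGFBI, a matrix protein, −0.47 for RNF144B, −0.63 for CD200, −0.64 for SLC14A1 and −0.68 for RASL11A, a small GTPase.

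Of the 32 differences 18 passed in every alternative that gave a result for them. The 9 Cimicifugae libraries alone hold no Citri group and gave none. Another 4, those of GDF15 (adjusted p = 0.481), NQO1 (0.806), RASL11A (0.226) and TRIB3 (0.578), were lost only with all 60 libraries in the fit. The other 10 were lost when at least 1 library was left out, and follow with the number of the 21 such fits in which each was lost and its highest adjusted p: BTG2 (13 fits, up to 0.163), CD200 (16 fits, up to 0.21), RNF144B (16 fits, up to 0.187), SLC14A1 (8 fits, up to 0.13), SLC7A5 (9 fits, up to 0.119), TGFBI (15 fits, up to 0.172), TKT (5 fits, up to 0.0644), TRIM16L (16 fits, up to 0.182), TXNRD1 (7 fits, up to 0.111) and UGT1A10 (6 fits, up to 0.0698). Of these 10, the differences of BTG2 (adjusted p = 1), TXNRD1 (1), SLC7A5 (0.553), CD200 (0.0907) and RNF144B (0.0582) were also lost with all 60 libraries. BTG2 was lost with 59 libraries (0.615), CD200 with the replicate block (0.0674) and RNF144B in DESeq2 (0.0746). Without the filter on low counts BTG2 (0.154), RNF144B (0.0671) and SLC7A5 (0.0606) were lost.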

How the results depend on the processing

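Counts of passing genes are given in the order higher, lower, medium against low, high against medium, and differing from Citri, which were 93, 94, 0, 72 and 42. DESeq2 gave 115, 95, 1, 100 and 58. Without the filter on low counts they were 134, 125, 68, 181 and 137. Of those 68 genes 63 had been tested with the filter, where none passed, and the cause was not tested. With all 60 libraries they were 70, 70, 1, 60 and 32, and 120 of the 187 calls were kept. With 59 libraries, leaving out 1 Zizyphi Fructus library that stands apart, they were 190, 182, 1, 156 and 87. The 9 Cimicifugae libraries alone gave 101, 94, 1 and 74. With 19 libraries, a choice made after seeing the data that left out Vehicle replicate 1 and Citri medium replicate 3, they were 140, 170, 1, 116 and 67. In the settings with 1 gene from low to medium dose it was CYP1B1. RLE factors and a stricter filter kept each count within 1.5 times. Leaving out 1 library at a time gave 62 to 111 higher, 44 to 128 lower, 0 to 1, 32 to 95 and 25 to 55. The falls numbered 44, 45 and 50 without Cimicifugae high replicates 1, 2 and 3 and 48 and 51 without low replicates 2 and 3. From medium to high dose 38, 35 and 39 passed without high replicates 1, 2 and 3 and 36, 40 and 32 without medium replicates 1, 2 and 3. Differences from Citri numbered 27, 25 and 26 without Cimicifugae high replicate 1, low replicate 2 and low replicate 3, and 26 without Citri low replicate 2.

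The replicate block gave 109, 101, 1, 81 and 46. Deviations of same-numbered high and low libraries correlated at 0.133, 0.0399 and 0.0882, not all above 0.1, so the numbers are not taken to pair the libraries, although each of the 3 high libraries correlated best with its own number.

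Of 97 named genes that passed, 58 passed in each of the 30 alternatives that gave them a result, 39 were lost in at least 1, and 0 changed sign. DESeq2 gave a result for 93 of the 97 and the stricter filter for 96. CYP1A1, ABCC2 and FOLR1 had a result in 29 alternatives and HOMER2 in 28. With all 60 libraries 22 of the 97 were lost: MUC13 (adjusted p = 0.954), SLC1A5 (0.922), CREB3L1 (0.823), SLC3A2 (0.747), MUC20 (0.602), SLC2A1 (0.58), GDF15 (0.58), TRIB3 (0.352), PFKP (0.297), SRXN1 (0.215), FTL (0.145), KCNQ1 (0.143), SLC12A2 (0.131), TRIM16 (0.131), HYOU1 (0.124), PROM1 (0.094), RAMP1 (0.0921), CEACAM6 (0.0885), ABCB6 (0.0708), VEGFA (0.0637), NQO1 (0.0589) and RASL11A (0.0552). With the replicate block 0 of the 97 were lost.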

Other observations

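Single members of further lists passed. NF-kappaB targets rose in 1 of 15 tested members, BIRC3, which inhibits apoptosis and is also on the list of the BCL2 family, by 0.43 ± 0.09 on the log2 scale (adjusted p = 0.0146, edgeR's quasi-likelihood test). Heat shock genes rose in 1 of 15, the chaperone HSPH1, by 0.18 ± 0.04 (adjusted p = 0.0245). Among 26 MAPK feedback and immediate early genes the EGF receptor ligand EREG rose by 0.36 ± 0.08 (adjusted p = 0.0201). Hypoxia and glycolysis genes rose in 3 of 26, the glucose transporter SLC2A1 by 0.21 ± 0.04 (adjusted p = 0.00199), VEGFA by 0.19 ± 0.04 (adjusted p = 0.0185) and the phosphofructokinase PFKP by 0.16 ± 0.04 (adjusted p = 0.0266). All of these calls but that of SLC2A1 were lost when 1 of several libraries was left out, at an adjusted p of up to 0.205, 0.176, 0.127, 0.155 and 0.184 for BIRC3, HSPH1, EREG, VEGFA and PFKP. Without low replicate 2, high replicate 3 or low replicate 3 the hypoxia list counted 1 rise.

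Enterocyte genes moved both ways in 3 of 19 tested members. CEACAM6, a surface adhesion protein, rose by 0.31 ± 0.06 (adjusted p = 0.0062) and KRT20, a keratin of mature colonocytes, by 0.17 ± 0.04 (adjusted p = 0.0263), while VIL1, the microvillus protein villin, changed by -0.19 ± 0.04 (adjusted p = 0.0151). CEACAM6 missed the threshold without low replicate 3 (adjusted p = 0.0632), KRT20 in 5 and VIL1 in 4 of the 21 fits that left out 1 library. In the ion transport list KCNQ1, a potassium channel, and SLC12A2, the chloride importer, changed by -0.27 ± 0.06 (adjusted p = 0.0252) and -0.28 ± 0.05 (adjusted p = 0.00554). SLC12A2 was at 743, 807 and 812 CPM at high, 919, 960 and 982 at low dose and 694, 767 and 790 in vehicle. Its high libraries overlapped those of vehicle. The ion transport list counted 0 falls without high replicate 1 and 1 without low replicate 1 or 3 or high replicate 2 or 3.

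In the lists of lysosome, matrix and stem cell genes a fall passed in 1 member each. CTSB, the lysosomal protease cathepsin B, changed by -0.18 ± 0.04 (adjusted p = 0.0463), TGFBI, a matrix protein, by -0.25 ± 0.05 (adjusted p = 0.0123) and PROM1, a stem cell surface protein, by -0.20 ± 0.05 (adjusted p = 0.0284). These calls were lost in 13, 3 and 5 of the 21 fits that left out 1 library, at an adjusted p of up to 0.251, 0.0868 and 0.166. ME1 was the 1 of 11 tested genes of the fatty acid synthesis list to pass.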
